A study of Mus musculus with 3 samples.

Results

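Bhmt and 8 further genes of methionine, betaine and sulfur metabolism (Bhmt2, Gnmt, Mat1a, Ahcy, Cbs, Cth, Pemt and Shmt1) were examined in mouse liver nuclei. They were 9 of the 32285 genes in the count tables, of which 23466 were detected in at least 3 nuclei. The genes were picked by role around a large fall of Bhmt in diseased liver that was already known from these data, so their levels in normal against diseased liver are a description and carry no test. Single-nuclei RNA sequencing (sNuc-Seq) was performed on frozen liver of 3 C57BL/6 J male mice, with 1 library per mouse. The control was 1 mouse on a normal diet (ND). The other 2 mice (STZ-HFHC 1 and STZ-HFHC 2) carried MASH-related liver fibrosis, where MASH is metabolic dysfunction-associated steatohepatitis. They had received 0.2 mg of streptozocin (STZ), a toxin of pancreatic beta cells, under the skin at 3 days of age, and from 4 weeks a diet high in fat and cholesterol (HFHC), in which 41 kcal% came from fat and 43 kcal% from carbohydrate. Because both treatments were given together, injection and diet cannot be told apart. The titles of the libraries hold codes of the same form whose first part differs between ND and both STZ-HFHC libraries, and what the codes stand for is not stated. If they mark batches, batch and disease cannot be told apart.

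The methionine cycle turns methionine into S-adenosylmethionine, the methyl donor of the cell, and then into S-adenosylhomocysteine and homocysteine. Homocysteine is either methylated back to methionine, with betaine or a folate as the donor, or passed down the transsulfuration pathway to cysteine. The liver is the main site of this cycle, and the betaine route, methionine adenosyltransferase I and glycine N-methyltransferase are hallmarks of hepatocytes.

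The libraries held 72934861 to 77617520 unique molecular identifier (UMI) counts, and 28336 nuclei were kept under limits on genes and mitochondrial counts per barcode. Clusters made without the members and the other pathway genes gave 5431 hepatocyte-like nuclei in ND, compared with 2297 (STZ-HFHC 1) and 2930 (STZ-HFHC 2), with median depths of 4035, 7563 and 6556 UMIs. Nuclei of this class lay almost wholly in different clusters in ND and in STZ-HFHC, apart from a small cluster with 32, 23 and 44 of them. Its 10 hepatocyte markers, such as Alb, Apob and Cps1, summed to 19864, 15335 and 19555 counts per 1000000 UMIs of the same nuclei (CPM). RNA of hepatocytes was found outside them as well, since the same markers summed to 13512 to 18072 CPM in the other named classes of ND, 7164 to 13297 in those of STZ-HFHC 1 and 10237 to 16076 in those of STZ-HFHC 2. Free RNA, released from broken cells and captured with nuclei, could give such values. So could doublets, or hepatocyte nuclei placed in other classes. These sources were not tested, and they have to be kept in mind for all values below. Levels below are sums over hepatocyte-like nuclei in CPM, and intervals in parentheses are 95% intervals for counting error only (exact Poisson for levels, conditional binomial for ratios). In place of a test, a gene was called lower or higher when its level was at least 2-fold below, or at least 2-fold above, that of ND in each STZ-HFHC mouse, among the 14311 genes with at least 50 UMIs over the 3 libraries.

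Bhmt encodes betaine-homocysteine methyltransferase, which remakes methionine from homocysteine with betaine from choline, and it changed most of the 9 genes. Its level was 5225 CPM in ND (5197–5253). The STZ-HFHC mice had 156 (151–162) and 288 (281–295). Both STZ-HFHC mice lay far below ND, at 2.99% (2.89–3.10) and 5.51% (5.37–5.65) of its level, or 33.4-fold and 18.2-fold lower. The mean log2 ratio to ND was −4.62 ± 0.62 (SD, n = 2), the 12th lowest of all genes tested. The STZ-HFHC mice also differed from each other by more than counting error, STZ-HFHC 2 having 1.84 times the level of STZ-HFHC 1 (1.76–1.92). With every nucleus thinned to 1000 UMIs, a Bhmt UMI was found in 96.7% of ND hepatocyte-like nuclei (96.2–97.2, Clopper-Pearson), 12.3% of those of STZ-HFHC 1 (11.0–13.7) and 21.2% of those of STZ-HFHC 2 (19.8–22.8). T or NK cell-like nuclei, which should lack the gene, had shares of 98.1% (93.4–99.8), 12.0% (8.24–16.7) and 19.3% (14.9–24.3). Over all other named classes, the shares ranged from 94.6% to 98.1% in ND, from 7.93% to 12.0% in STZ-HFHC 1 and from 10.2% to 19.3% in STZ-HFHC 2. Those of hepatocyte-like nuclei lay inside this range in ND and above it in both STZ-HFHC mice, where the intervals overlapped that of T or NK cell-like nuclei but not that of macrophage-like nuclei (6.43–9.64 and 12.3–17.5). Because a Bhmt UMI was found at such shares in other classes as well, no share is read as that of expressing nuclei. This thinning left out 227, 17 and 12 hepatocyte-like nuclei, and without thinning 99.6%, 47.0% and 64.1% held a Bhmt UMI.

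**Figure D1:**
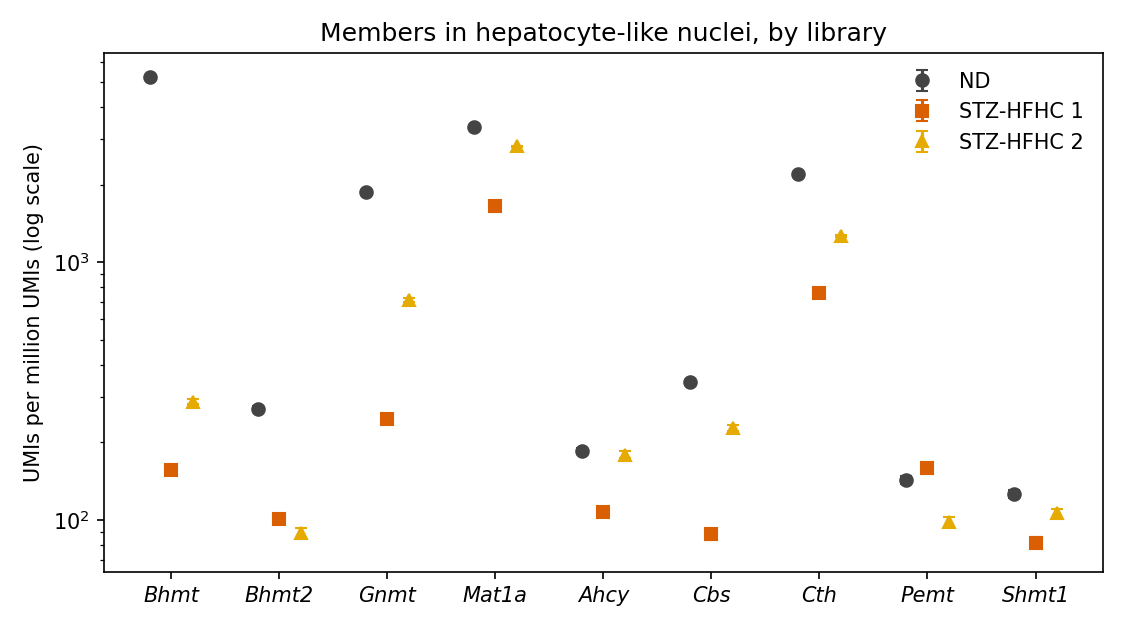
Levels of the 9 members in hepatocyte-like nuclei, in CPM on a log axis, with 1 point per library (ND, STZ-HFHC 1, STZ-HFHC 2) and bars for the exact Poisson 95% interval. Bhmt fell from 5225 in ND to 156 and 288, while Pemt stayed between 98.3 and 158 in all 3 libraries.

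Of the 9 members, 3 were called lower (Bhmt, Bhmt2 and Gnmt), 0 were called higher and 6 passed neither rule. Over all genes tested, 5.46% were called lower and 7.87% higher. Since the members were picked around this contrast, nothing is read from their count. The level was below ND in both STZ-HFHC mice for 8 of the 9, beside 5098 of the 14311 genes tested and 30 of 62 other pathway genes. The median of the mean log2 ratios of the members was −1.17, beside 0.08 over all genes tested and −0.17 over the 62 other pathway genes. These values depend on how libraries were scaled. Median-of-ratios size factors moved the median of all genes by −0.13 and scaling to hepatocyte markers moved it by 0.20. The split of calls over all genes, 782 lower and 1126 higher, became 1005 and 937 under the former and 559 and 1304 under the latter. Bhmt, Bhmt2 and Gnmt were called lower under all 3 scalings.

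Bhmt2 encodes a sister enzyme that uses S-methylmethionine as its methyl donor. It had 270 CPM in ND (264–277). The STZ-HFHC mice had 101 (96.3–105) and 89.2 (85.3–93.3). Both diseased livers were below ND and close to each other, 2.68-fold and 3.03-fold lower, and their log2 ratios averaged −1.51 ± 0.12 (SD, n = 2). The coding sequences of Bhmt (1224 bases) and Bhmt2 (1092 bases) are 75.3% identical over 1091 aligned bases, and the longest run shared by their transcripts is 59 bases. Reads inside such a run could not be assigned to 1 of the genes.

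Bhmt and Bhmt2 lie side by side, and the genes around them were therefore compared, a choice made after their values were seen. In the GENCODE M21 annotation of GRCm38, Bhmt (ENSMUSG00000074768) lies on the minus strand of chromosome 13 from 93616675 to 93637961. Bhmt2 (ENSMUSG00000042118) follows on the same strand from 93655720 to 93674302, and Dmgdh, for the dimethylglycine dehydrogenase that breaks down the product of the BHMT reaction, starts on the other strand and runs from 93674433 to 93752833. Gm15622 and AW495222, both noncoding, sit inside this stretch on the strand opposite to their host, the former within Bhmt (93625382 to 93628633) and the latter within Dmgdh (93706182 to 93719175).

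All 5 genes of this stretch were called lower, and 0 of the 6 other tested genes within 500 kb of Bhmt were, beside 5.46% of all genes tested. The stretch was chosen with these values known, so this split follows in part from that choice and is a description. Dmgdh had 788 CPM in ND, compared with 199 (STZ-HFHC 1) and 263 (STZ-HFHC 2), which was 3.96-fold and 2.99-fold lower. Gm15622 had 944, 9.82 and 32.4 CPM, a drop of 96.1-fold and 29.2-fold. AW495222 had 27.7, 0.818 and 3.98 CPM, with 16 and 86 UMIs behind the STZ-HFHC values. The genes on either side did not share this direction. Jmy, the next tested gene on one side, had log2 ratios of 0.60 and 0.53, and Arsb, the next on the other, had 0.34 and 0.17. Cmya5, Tent2, Homer1 and Lhfpl2 completed the 11 tested genes of the neighbourhood, with log2 ratios between −0.0015 and 0.71. The 5 genes of the stretch were lower by at least 2-fold under every alternative tried at that threshold.

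**Figure D2:**
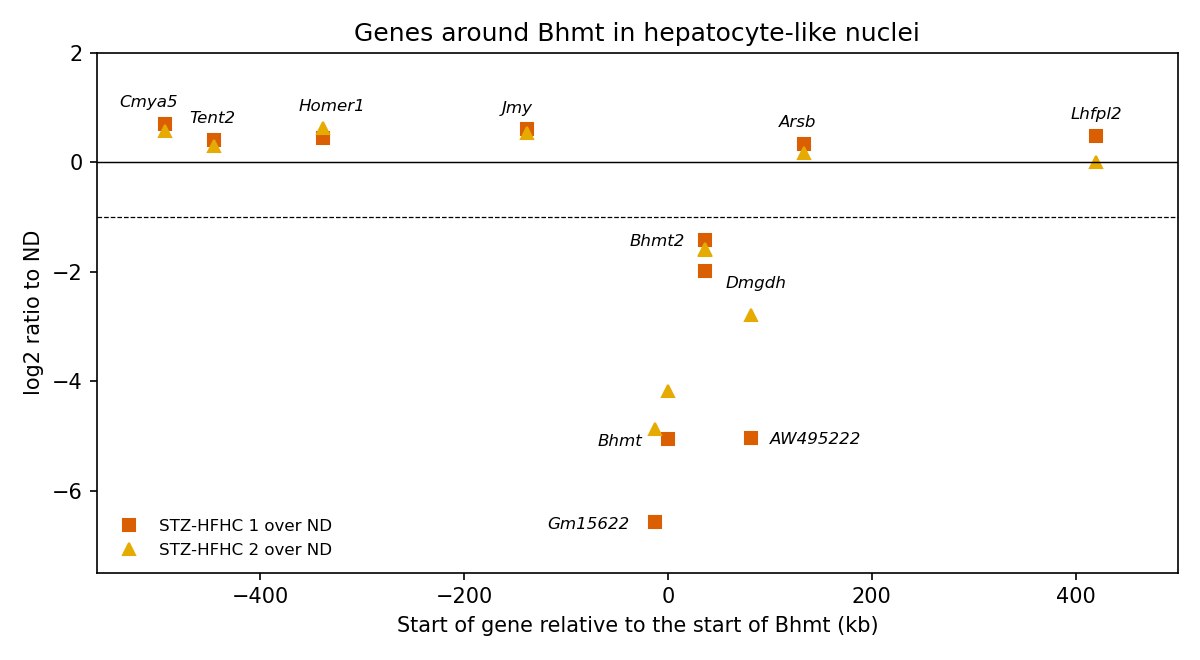
Log2 ratio to ND in hepatocyte-like nuclei (vertical axis) for the 11 tested genes within 500 kb of Bhmt, placed by the distance of their start from that of Bhmt in kb; squares are STZ-HFHC 1, triangles STZ-HFHC 2, and the dashed line marks a 2-fold fall. The 5 genes from Gm15622 to AW495222 lie below the dashed line in both mice, and the 6 other genes lie between −0.0015 and 0.71.

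The sources used here do not state whether counting used the strand of reads, so that Bhmt and Gm15622, or Dmgdh and AW495222, may share reads. The antisense counts were not a fixed share of those of the host gene. Gm15622 UMIs amounted to 18.1% of Bhmt UMIs in ND, compared with 6.28% (STZ-HFHC 1) and 11.2% (STZ-HFHC 2). For AW495222 and Dmgdh the shares were 3.52%, 0.411% and 1.51%.

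Bhmt2 and Dmgdh run apart on opposite strands from a gap of 130 bases, which lies upstream of both genes. It is printed because both neighbours were lower together, and it is set beside the stretch upstream of Gnmt, the member with the second lowest ratio, and 30 bases upstream of the RefSeq start of Bhmt. All are given 5′ to 3′ on the strand of the named gene, from RefSeq promoter sequences on GRCm38.p6, which covered 7 of the 9 members. Capitals mark GGGCGG (the GC box) in the first, CCAAT (the CCAAT box, here on the opposite strand) in the second and CAAAGGTCA (an HNF4-type motif) in the third. The Bhmt stretch also holds the CCAAT box on the opposite strand, as attgg, which is left in lower case.
Bhmt2 to Dmgdh, chr13:93674303-93674432, minus strand: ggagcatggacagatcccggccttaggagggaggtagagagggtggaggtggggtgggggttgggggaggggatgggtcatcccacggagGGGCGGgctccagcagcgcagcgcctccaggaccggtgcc
Gnmt, chr17:46729169-46729415, minus strand: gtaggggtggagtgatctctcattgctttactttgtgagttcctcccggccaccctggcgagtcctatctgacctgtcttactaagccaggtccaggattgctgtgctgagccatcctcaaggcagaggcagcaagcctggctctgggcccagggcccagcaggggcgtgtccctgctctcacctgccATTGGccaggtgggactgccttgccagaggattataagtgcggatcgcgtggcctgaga
Bhmt, chr13:93637789-93637818, minus strand: tgctattggaCAAAGGTCAgtgtgcagacg

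With both strands searched, GGGCGG was found in 35.7% of all 32851 promoter windows, CCAAT in 37.4% and CAAAGGTCA in 0.478%. Among the 7 members with a window, CAAAGGTCA was in that of Bhmt alone, CCAAT in 6 and GGGCGG in 4, while TATAAA (the TATA box, in 13.6% of all windows) was in 0. The windows also differed in composition. That of Bhmt2 had 73.7% G and C with 26 CpG sites, and that of Bhmt had 48.0% with 8, beside medians of 52.7% and 7 over all windows. These matches are descriptions of letters and not sites of binding. The 30 bases of Bhmt lie within an annotated exon of a longer GENCODE transcript, whereas the other stretches overlap no exon.

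Gnmt encodes glycine N-methyltransferase, which spends surplus S-adenosylmethionine on glycine, and it lies on chromosome 17 from 46725664 to 46729168. It had 1868 CPM in ND (1852–1885). The STZ-HFHC mice had 247 (240–254) and 712 (701–723). Both STZ-HFHC mice were below ND, but the fall was 7.57-fold in the former and 2.62-fold in the latter, and the log2 ratios averaged −2.16 ± 1.08 (SD, n = 2).

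Mat1a makes S-adenosylmethionine in hepatocytes and lies on chromosome 14 from 41105035 to 41124412. Its levels were 3362 CPM in ND, compared with 1651 (STZ-HFHC 1) and 2813 (STZ-HFHC 2), at 49.1% (48.5–49.7) and 83.7% (82.8–84.5) of ND. It therefore passed 2-fold in 1 mouse and not in the other. Ahcy, for the hydrolase that splits S-adenosylhomocysteine, lies on chromosome 2 from 155059310 to 155074497. It had 185 CPM in ND, compared with 107 (STZ-HFHC 1) and 179 (STZ-HFHC 2), and the level of STZ-HFHC 2 was 0.969 times that of ND (0.928–1.01), a difference within counting error. Pemt, whose product spends S-adenosylmethionine on making phosphatidylcholine, lies on chromosome 11 from 59970614 to 60046489. It was the member with no shared direction, at 143 CPM in ND, compared with 158 (STZ-HFHC 1) and 98.3 (STZ-HFHC 2), and its mean log2 ratio of −0.20 became 0.0022 when scaled to hepatocyte markers. Shmt1, the cytosolic enzyme that moves a carbon unit from serine to folate, lies on the same chromosome from 60788104 to 60811718. It had 126, 81.5 and 106 CPM, and its log2 ratios averaged −0.43 ± 0.27 (SD, n = 2). Ahcy and Shmt1 each overlap a gene of the opposite strand (Gm45609 and Smcr8), so that reads of these pairs may be shared.

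The transsulfuration genes Cbs and Cth, which carry homocysteine to cystathionine and on to cysteine, lie on chromosome 17 from 31608894 to 31637238 and on chromosome 3 from 157894248 to 157925077. Cbs had 343 CPM in ND, compared with 87.9 (STZ-HFHC 1) and 227 (STZ-HFHC 2), which was 3.90-fold and 1.51-fold lower. Cth had 2204, 762 and 1264 CPM, which was 2.89-fold and 1.74-fold lower. Both were at least 2-fold lower in STZ-HFHC 1 alone. With STZ-HFHC 1 as the only diseased mouse, 6 members were called lower (Bhmt, Bhmt2, Gnmt, Mat1a, Cbs and Cth), beside 11.9% of all genes. With STZ-HFHC 2 as the only one, Bhmt, Bhmt2 and Gnmt were called lower, as were 7.42% of all genes. With all nuclei and no classes, Cbs and Cth joined the 3 members called lower (4.74% of all genes lower), and Cth alone did so without upper limits on genes and mitochondrial counts (5.02%) and in coarser clusters (5.51%).

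The STZ-HFHC mice were unlike each other for all 9 members by more than counting error. This count was not set beside that of all genes, and at such depth even small differences pass counting error. It is therefore not read as a trait of the members. STZ-HFHC 2 had the higher level of 7, with ratios from 1.30 for Shmt1 to 2.89 for Gnmt. It had the lower level of Bhmt2, at 0.886 times STZ-HFHC 1 (0.832–0.944), and of Pemt, at 0.621 times (0.587–0.656). The summed hepatocyte markers of the same nuclei differed in the same direction as those 7, at 15335 and 19555 CPM, and their part in the difference was not tested. The mix of clusters was unlike too. A cluster led by Nrg1 and Rad51b gave 1122 of the 2297 nuclei of STZ-HFHC 1. For STZ-HFHC 2 it gave 216 among 2930. Cth had 323 and 367 CPM in that cluster, and 1515 and 1544 in a periportal one led by Sds. Over the class it had 762 and 1264. Gnmt remained apart, at 162 and 335 CPM in the former cluster and 365 and 776 in the latter. The part of this mix in the difference was not tested.

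Of 64 other genes of methionine, folate, choline, cysteine, taurine and polyamine metabolism, 62 were tested. Of these, 9 were called lower, 1 was called higher and 52 passed neither rule. With members and list chosen after the data were known, this count is a description beside the 5.46% and 7.87% of all genes. Csad, of taurine synthesis, had 190 CPM in ND, compared with 37.8 (STZ-HFHC 1) and 38.0 (STZ-HFHC 2), log2 ratios of −2.33 and −2.32. Mtr, the methionine synthase of the folate route, had 24.8, 29.5 and 28.1 CPM and passed neither rule. Mpst and Ethe1 of mitochondrial sulfur breakdown had log2 ratios of −2.03 and −1.61, and of −1.48 and −1.64, respectively. Dnmt3b, a DNA methyltransferase, had −1.54 and −1.43, Amdhd1 of histidine breakdown had −1.60 and −1.16, and Gamt, which makes creatine with S-adenosylmethionine, had −1.05 and −1.50. Dmgdh has been described above, and Suox, sulfite oxidase, was also called lower and is named here beyond the rule for naming. The gene called higher was Mthfd1l, a mitochondrial folate enzyme, with 19.6 CPM in ND, compared with 118 (STZ-HFHC 1) and 129 (STZ-HFHC 2). Mat2a, the form of methionine adenosyltransferase found outside hepatocytes, had 137, 148 and 220 CPM and passed neither rule.

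**Figure D3:**
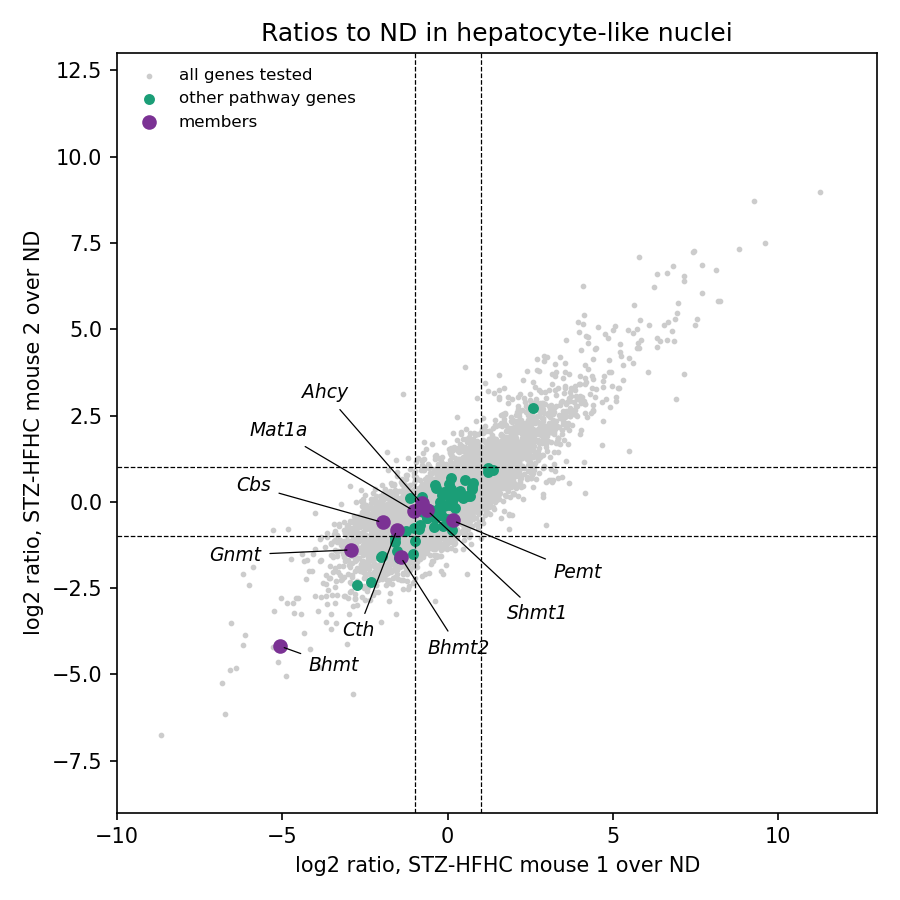
Log2 ratio to ND in hepatocyte-like nuclei for STZ-HFHC 1 (horizontal axis) and STZ-HFHC 2 (vertical axis), with the 14311 tested genes in grey, 62 other pathway genes in green, the 9 members in purple and dashed lines at 2-fold. Bhmt lies at −5.06 and −4.18, and both axes share the ND library as denominator, so that the spread along the diagonal is not read as agreement between mice.

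Within libraries, the members were then compared over classes of nuclei, with Bhmt as the clearest case. In ND, Bhmt was at 5461 CPM in T or NK cell-like nuclei (5288–5639), 5351 in B cell-like nuclei (5169–5537) and 5337 in endothelial-like nuclei (5283–5391), as high as in hepatocyte-like nuclei. Stellate or fibroblast-like, cholangiocyte-like and monocyte-like nuclei of ND had 4987, 4536 and 3672 CPM. In STZ-HFHC 1 the other classes lay between 76.0 and 122 CPM, and in STZ-HFHC 2 between 130 and 216, in both mice below the hepatocyte-like level. The contrast between ND and STZ-HFHC was therefore present in every named class with enough nuclei in ND, and no level outside hepatocyte-like nuclei is read as expression by those cells. For each hepatocyte marker UMI, other classes of ND carried 1.00 to 1.21 times the Bhmt UMIs of hepatocyte-like nuclei. In STZ-HFHC 1 they carried 0.561 to 1.53 times, and in STZ-HFHC 2 they carried 0.844 to 1.00 times. Over all 9 members, these ratios in ND ran from 0.628, the lowest for Pemt, to 1.25, the highest for Cbs.

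**Figure D4:**
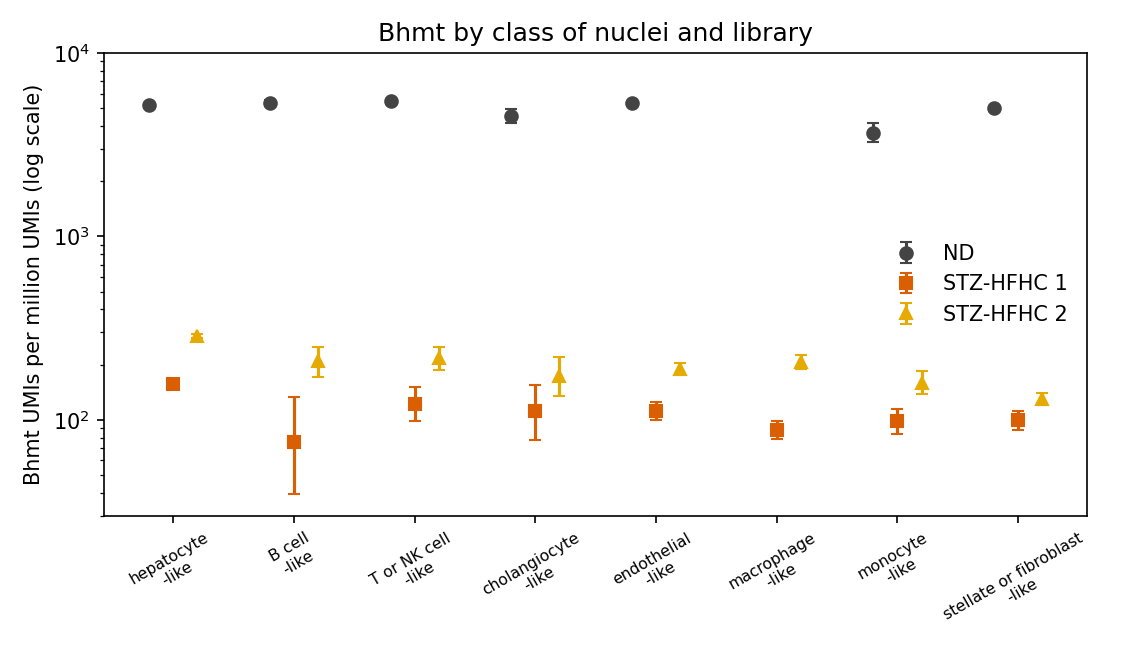
Bhmt level in CPM on a log axis, by named class of nuclei and library, with exact Poisson 95% intervals; a point is drawn where a library had at least 20 nuclei of the class. The ND points lie between 3672 and 5461 in all 7 classes drawn, and all STZ-HFHC points lie between 76.0 and 288.

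Hepatocyte-like nuclei had higher levels than the sum of all other named classes for 8 of the 9 members in all 3 libraries. The exception was Cbs, which was higher in 2 of 3. The mean log2 difference ranged from 0.38 ± 0.18 for Gnmt to 0.72 ± 0.42 for Ahcy (SD, n = 3), and for Bhmt it was 0.02 in ND, compared with 0.64 (STZ-HFHC 1) and 0.74 (STZ-HFHC 2). A sign-flip test over 3 libraries cannot go below p = 0.25 (exact, two-sided), so no test was made. The median log2 difference of the hepatocyte markers themselves was of similar size, at 0.30, 0.78 and 0.57.

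Hepatocytes divide their work along the liver lobule, and many of their enzymes are known to be concentrated at the pericentral or the periportal end. Hepatocyte-like nuclei of each library were divided into 3 groups of equal size (pericentral, middle and periportal) by a score of 9 pericentral and 10 periportal markers. The markers that made the score differed by construction, with mean log2 ratios of pericentral over periportal nuclei of 3.54 for Oat to 6.10 for Slc1a2 and of −0.78 for Ctsc to −3.41 for Etnppl. The members were not in the score. Cth and Cbs had the largest differences of the members, both toward the periportal end. Cth had 1677 CPM in pericentral and 2508 in periportal nuclei of ND, 345 and 1399 for STZ-HFHC 1, and 654 and 1688 for STZ-HFHC 2. Its log2 ratio was −0.58, −2.02 and −1.37, a mean of −1.32 ± 0.72 (SD, n = 3). That of Cbs was −0.35, −1.75 and −1.49, a mean of −1.19 ± 0.74 (SD, n = 3).

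Bhmt was also lower in pericentral nuclei in all 3 libraries. It had 3591 CPM in pericentral and 6496 in periportal nuclei of ND, a log2 ratio of −0.86. In STZ-HFHC 1 it had 153 and 171 CPM, and in STZ-HFHC 2 it had 229 and 301, log2 ratios of −0.15 and −0.40. The low level of Bhmt in STZ-HFHC was found in each group, with mean log2 ratios to ND of −4.26 ± 0.41 in pericentral, −4.67 ± 0.83 in middle and −4.84 ± 0.58 in periportal nuclei (SD, n = 2). Its neighbours Bhmt2 and Dmgdh were lower in pericentral nuclei in all 3 libraries as well, with mean log2 ratios of −0.37 ± 0.22 and −0.30 ± 0.22 (SD, n = 3), and so was Gm15622.

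Mat1a, Ahcy and Shmt1 were lower in pericentral nuclei of all 3 libraries, with mean log2 ratios of −0.45 ± 0.33, −0.52 ± 0.36 and −0.36 ± 0.13 (SD, n = 3). Pemt was the only member with a higher level at the pericentral end in every library, by 0.06 in ND, compared with 0.33 (STZ-HFHC 1) and 0.70 (STZ-HFHC 2). In ND the interval of its ratio included 1 (0.961 to 1.13), as did that of Ahcy (0.867 to 1.001). Gnmt was slightly higher at the pericentral end of ND, by 0.08, and lower in both STZ-HFHC mice, with log2 ratios of −0.86 and −0.48. For 7 of the 9 members, all but Bhmt and Bhmt2, the zone ratio of ND lay closer to 0 than that of either STZ-HFHC mouse. The same comparison was not made over all genes, so nothing is read from this count. Whether zones differ between conditions was not tested. ND had 1 library and nuclei of lower depth, and free RNA may add to both ends.

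**Figure D5:**
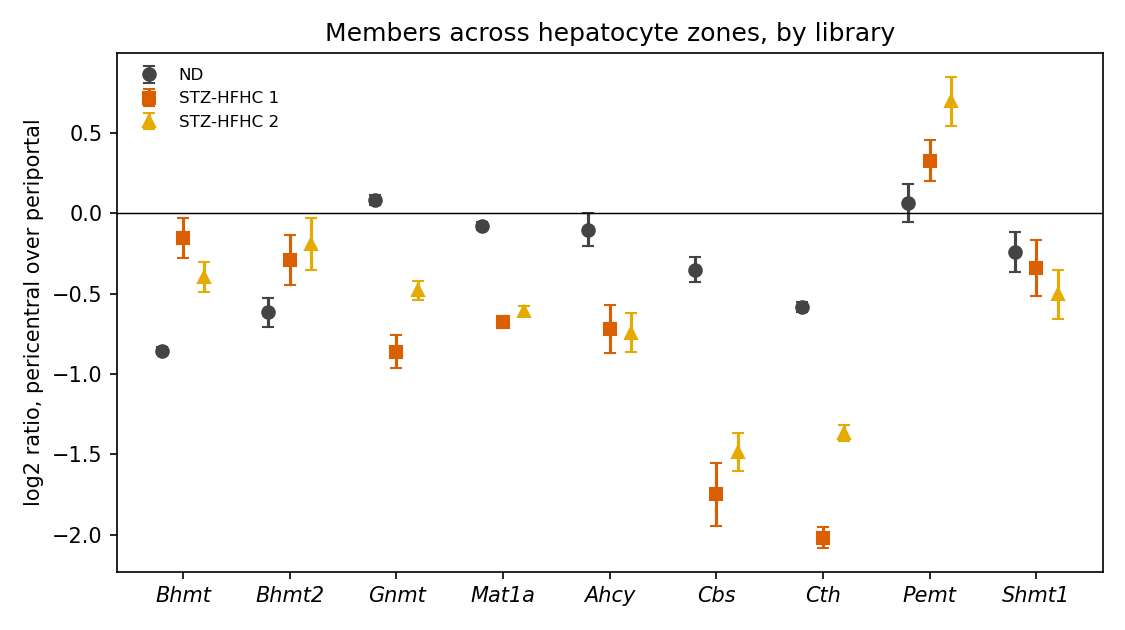
Log2 ratio of pericentral over periportal hepatocyte-like nuclei for each member and library, with conditional binomial 95% intervals; values below 0 are higher at the periportal end. Cth and Cbs reach −2.02 and −1.75 in STZ-HFHC 1, and Pemt is above 0 in all 3 libraries.

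Bhmt was next compared over the clusters of hepatocyte-like nuclei, which were made without it but with Gm15622. In ND, Bhmt had 5647 CPM in the largest cluster, which Bhmt itself led with Gm15622 and Sult2a8, 4844 in a cluster led by Serpina1e, Mup3 and mt-Cytb, and 3172 in a pericentral cluster led by Sgcz, Lgr5 and Glul. In STZ-HFHC it was low in every large cluster. A periportal cluster led by Sds, Nrg4 and Gm17276 had 182 CPM of Bhmt in the first STZ-HFHC mouse and 316 in the other, and a pericentral cluster led by Slc1a2, Slc22a3 and Glul had 182 and 239. A cluster with Nrg1 and Rad51b as its first leading genes, which held 1122 nuclei of the first STZ-HFHC mouse and 216 of the other, had 130 and 133. Cth separated the last cluster more clearly, at 323 and 367 CPM, compared with 1515 and 1544 in the periportal cluster of the same mice and 480 and 603 in the pericentral one. A small cluster led by the interferon-induced genes Rsad2, Cmpk2 and Oasl1 held nuclei of all 3 libraries. Bhmt had 3722 CPM there in 32 nuclei of ND. In 23 nuclei of STZ-HFHC 1 it had 36.9 CPM (14.8–76.0, from 7 UMIs), and in 44 of STZ-HFHC 2 it had 164. As ND was above STZ-HFHC in every named class compared, the difference inside this cluster adds no support. A large cluster of STZ-HFHC nuclei with raised hepatocyte markers was left unnamed because Themis, a T cell marker, was among its leading genes. Its Bhmt level was 154 CPM (STZ-HFHC 1) and 177 CPM (STZ-HFHC 2), and counting it as hepatocyte-like added Cth to the members called lower, beside 5.52% of all genes.

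Over 23 sums of a class and a library, the levels of 11787 genes were ranked by their likeness to Bhmt (Pearson correlation of log2 of CPM plus 10). The 5 most alike were Gm15622 (r = 0.995), Clpx (0.989), Gm14764 (0.989), AW495222 (0.988) and Elovl3 (0.986). The 2 antisense genes of the stretch from Bhmt to Dmgdh were thus both among the top 5. Clpx, for a subunit of a mitochondrial protease, lies on chromosome 9 and had 1267 CPM in ND, compared with 251 (STZ-HFHC 1) and 296 (STZ-HFHC 2). Gm14764, an antisense gene on chromosome X, had 49.4, 1.28 and 5.50 CPM. Elovl3, a fatty acid elongase, lies on chromosome 19 and had 193, 2.61 and 10.9 CPM. Of the other members, Bhmt2 ranked 63rd (r = 0.943), Gnmt 87th (0.934), Cth 178th (0.900) and Pemt 1880th (0.495). Sums of the same library may share free RNA and all ND sums share 1 mouse, so that these correlations are descriptions and carry no p-value.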

How the data were processed

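For each of the 3 libraries, the deposited file held the UMI counts of genes by barcode, made by the authors with Cell Ranger 7.0.1 (mm10, per the submitters' processing notes) and left unnormalized. The files held 30989 barcodes. This equals the cell count that the study's methods give after filtering. Applying the limits given there (at least 200 and at most 5000 genes, at most 5% mitochondrial counts) left 28336. Libraries shared 29 to 32 barcodes in pairs. Correction for free RNA was not applied. Analyses used Python 3.11.15, Scanpy 1.11.5, NumPy 2.4.6 and SciPy 1.17.1, with 2000 variable genes, 30 principal components, 15 neighbors and Leiden clustering at a resolution of 1, without batch correction. Members and the 64 other pathway genes were left out of clustering.

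Clusters were named from marker lists (at least 3 markers and 33.3% of a list raised 2-fold), with steps for hepatocyte clusters from zone markers or from 3 hepatocyte markers at 1.2 times other nuclei. These steps were revised after clusters were seen. All large hepatocyte-like clusters of STZ-HFHC were named by these steps, while of the large ones of ND only the pericentral cluster was. The automatic Scrublet threshold marked 1, 0 and 0 nuclei and did not work. Doublets were kept, and an alternative left out the 8% highest scores. Log2 ratios had 0.5 added to each count. The named genes were all members, pathway genes past the rule of size (at most 8 in a direction), the 5 genes most like Bhmt, 3 leading genes of each hepatocyte-like cluster and the zone markers. Some genes that this rule names are not reported here. Members and lists were chosen with earlier results of these data known. Of the gene identifiers, 99.6% were in GENCODE M21, among them all 9 members. The mRNA sequences of Bhmt and Bhmt2 came from the same release. The methods were tested on simulated data.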

Additional observations from a re-analysis of the deposited data

Results flagged for a closer look

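The zone ratio of Gnmt had opposite directions in the conditions. Its log2 ratio of pericentral over periportal nuclei was 0.083 in ND, and −0.86 and −0.48 in the STZ-HFHC mice, so that both diseased mice lay on the other side of 0. The difference was not tested, since ND had 1 library.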

How the results depend on the processing

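Bhmt was 25.8- to 37.1-fold lower in STZ-HFHC 1 and 17.6- to 23.1-fold lower in STZ-HFHC 2 under every alternative. Of the 9 members, 3 to 4 were called lower except as follows, and none higher. With all nuclei and no classes 5 were lower (Cbs and Cth added; 4.74% of all genes). Without STZ-HFHC 1 there were 3 (7.42% of all), without STZ-HFHC 2 there were 6 (11.9%), and at a log2 ratio of 2 there was 1 (Bhmt, among 111 genes or 0.776% of all). Cth was added without upper limits on genes and mitochondrial counts, at a Leiden resolution of 0.5 and with the unnamed cluster, the last an alternative chosen after seeing the data (5.02%, 5.51% and 5.52% of all genes lower). The median of the members ranged from −0.97 to −1.54, and from −0.60 to −1.42 when a mouse was left out.

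Over all genes, calls of lower expression numbered 111 at a log2 ratio of 2, 2010 without a minimum of UMIs, and 1002 to 1605 when a mouse was left out. Calls of higher expression numbered 336 and 2667 under the former pair of settings, 504 after thinning, which leaves fewer genes tested, 2287 with all nuclei, and 1100 to 1550 when a mouse was left out. Of the other pathway genes, 2 were lower at a log2 ratio of 2. Those called higher numbered 2 without high Scrublet scores, with scaling to hepatocyte markers, at a Leiden resolution of 0.5, without a minimum of UMIs, and (chosen after seeing the data) with the unnamed cluster or without the ND cluster of fewest UMIs. They numbered 3 after thinning, with all nuclei or (likewise chosen later) in nuclei of at least 5000 UMIs, and 1 to 4 when a mouse was left out. From Bhmt to Dmgdh, 3 of 5 genes were lower at a log2 ratio of 2, beside 0.776% of all genes. Where not stated, the cause was not tested. No called direction reversed, and the mean log2 ratio of Pemt moved from −0.20 to 0.0022 when scaled to hepatocyte markers.

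No paired analysis was possible because ND had 1 library with no replicate number. Limits are the single control mouse, label codes that differ with the condition, unequal depth and hepatocyte RNA in other classes, whose source was not tested. Counting intervals describe 1 library each and not the spread between mice.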
